A study of Mus musculus with 6 samples.

Results

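The 4 mature miRNAs described here, mmu-miR-143-3p, mmu-miR-143-5p, mmu-miR-145a-5p and mmu-miR-145a-3p, are both arms of 2 hairpins that are transcribed together. They were taken by name from a table of 1542 mature entries, and all 4 were found. The hairpins lie on the minus strand of mouse chromosome 18 (GRCm38, GENCODE M21), Mir143 at 61649196 to 61649258 and Mir145a at 61647825 to 61647894, with 1301 bases between them. GENCODE M21 annotates no other gene over either hairpin, while RefSeq (GRCm38.p6) places both within the long non-coding RNA gene Carmn (61645878 to 61665538), also named Mir143hg. Kidneys came from female mice aged 17 weeks of 2 strains, with 3 libraries of each. One group was C57BL/6, called wild type in the series' design text. The other was MRL/lpr (MRL/MpJ-Fas lpr), an inbred strain that carries the lpr mutation of Fas and develops lupus-like nephritis. Strain background, the Fas mutation and disease differ together between the groups and cannot be told apart, and no treatment is given in the labels. The labels name no animals, and every p-value below rests on the spread between libraries, which may be technical.

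MicroRNAs are cut from a hairpin whose arms form a duplex. One arm is usually kept by Argonaute as the guide and pairs with messenger RNAs through its seed, bases 2 to 8, while the other is mostly degraded. miR-143 and miR-145 are the best known miRNAs of vascular smooth muscle and pericytes: serum response factor with myocardin drives their primary transcript, and they favour the contractile state by repressing factors such as Klf4, Klf5 and Elk1. In kidney they mark vessel walls and mesangial and renin-lineage cells. Whole kidney was sequenced, so fewer cells of a type and less RNA per cell cannot be told apart.

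Other miRNAs are known from the opposite, proliferative state of vascular smooth muscle, and 7 of them are shown because the strain differences of miR-143 and miR-145 are set beside theirs. The sequences are mature RefSeq sequences (GRCm38.p6), written 5′ to 3′ with the seed in capitals.
mmu-miR-21a-5p: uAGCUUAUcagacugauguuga
mmu-miR-221-3p: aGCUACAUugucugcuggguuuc
mmu-miR-222-3p: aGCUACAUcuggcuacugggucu
mmu-miR-146a-5p: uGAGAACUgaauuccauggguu
mmu-miR-26a-5p: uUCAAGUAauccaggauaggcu
mmu-miR-24-3p: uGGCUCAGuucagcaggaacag
mmu-miR-31-5p: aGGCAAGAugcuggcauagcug
miR-221-3p and miR-222-3p, which repress the cell cycle inhibitor p27, share 1 seed, so the 7 hold 6 different seeds. miR-26a-5p and miR-24-3p each come from 2 loci, and the other 5 from 1.

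The libraries held 5259528 to 6773829 counts with 877 to 954 detected entries each, and after a filter on low counts 451 entries remained for testing. Of the 451, 28 (6.21%) passed the strain test in either direction, 19 higher and 9 lower in MRL/lpr (edgeR, adjusted p under 0.05). Groups did not overlap for 130 of the 451 (28.8%). With library size in place of TMM scaling the split was 24 higher and 6 lower, and the median log2 fold change of all 451 moved by 0.15. C57BL/6 replicate 2 departed from its group, with high leukocyte and injury miRNAs, so results that move without it are given both ways.

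None of the 3 members tested passed the strain test, and in none did the groups fail to overlap. mmu-miR-143-3p, the guide arm of its hairpin, was among the most abundant kidney miRNAs and lay 1.26-fold lower in MRL/lpr. mmu-miR-145a-5p, the guide arm of the neighbouring hairpin, lay 1.09-fold higher. The other arm of that hairpin, mmu-miR-145a-3p, lay 1.37-fold lower. mmu-miR-143-5p was near the limit of detection and was not tested. The unadjusted edgeR p was 0.0599 for miR-143-3p, 0.54 for miR-145a-5p and 0.118 for miR-145a-3p, and DESeq2 and limma-voom called none of them either (adjusted p from 0.23 to 0.85).

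mmu-miR-143-3p had 157981, 221373 and 181265 counts in C57BL/6 replicates 1, 2 and 3, and 170449, 153266 and 136272 in MRL/lpr replicates 1, 2 and 3. Scaled to a common library total with TMM factors (CPM) these were 32315, 35554 and 28233 in C57BL/6 against 24061, 29739 and 22554 in MRL/lpr. C57BL/6 replicate 2 was the highest library, and MRL/lpr replicate 2 exceeded C57BL/6 replicate 3, so the groups overlapped in that pair of libraries. The means were 32034 ± 3668 CPM in C57BL/6 against 25451 ± 3789 CPM in MRL/lpr (SD, n = 3). The log2 fold change, MRL/lpr over C57BL/6, was -0.33 ± 0.16 (SE; edgeR adjusted p = 0.252), with a 95% interval from -0.68 to 0.017, or 0.624-fold to 1.01-fold. With library size in place of TMM it was -0.19. The miRNA held 2.91%, 3.56% and 2.68% of all counts in C57BL/6 against 2.64%, 2.91% and 2.45% in MRL/lpr. The exact 95% binomial interval was at most from 3.55% to 3.58%, for C57BL/6 replicate 2, so counting error is far below the spread between libraries (such intervals cover counting only, since PCR copies may be counted as molecules).

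mmu-miR-145a-5p had 5847, 7509 and 9053 counts in C57BL/6 against 11448, 5655 and 8676 in MRL/lpr. In CPM this was 1196, 1206 and 1410.1 in C57BL/6 against 1616, 1097 and 1436 in MRL/lpr. MRL/lpr held both the highest library, replicate 1, and the lowest, replicate 2, so its range enclosed that of C57BL/6. The means were 1271 ± 121 and 1383 ± 263 CPM (SD, n = 3), with a log2 fold change of 0.12 ± 0.19 (SE; edgeR adjusted p = 0.738) and a 95% interval from -0.31 to 0.55. The value was small beside its error and moved with the libraries: 0.28 with library size, 0.032 without C57BL/6 replicate 1, 0.023 without MRL/lpr replicate 1 and 0.24 without MRL/lpr replicate 2.

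mmu-miR-145a-3p, the less abundant arm, had 408, 400 and 408 counts in C57BL/6 against 471, 193 and 300 in MRL/lpr, or 83.5, 64.2 and 63.5 CPM against 66.5, 37.4 and 49.7 CPM. MRL/lpr replicates 2 and 3 lay below every C57BL/6 library, and MRL/lpr replicate 1 lay among them. The means were 70.4 ± 11.3 and 51.2 ± 14.6 CPM (SD, n = 3), with a log2 fold change of -0.46 ± 0.27 (SE; edgeR adjusted p = 0.352) and a 95% interval from -1.06 to 0.14. With library size it was -0.29. The same hairpin thus gave point estimates of opposite sign for its arms, and both intervals include 0.

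mmu-miR-143-5p had 4, 12 and 7 counts in C57BL/6 against 9, 6 and 9 in MRL/lpr, 23 and 24 in all. In CPM it was 0.818, 1.93 and 1.09 in C57BL/6 against 1.27, 1.16 and 1.49 in MRL/lpr. C57BL/6 held both the lowest and the highest library. Fewer than 3 libraries reached the level the filter on low counts asks for, so no test was made with it. Without a filter edgeR gave a log2 fold change of -0.0037 (adjusted p = 0.997), and at these counts a strain difference was not detectable.

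**Figure D1:**
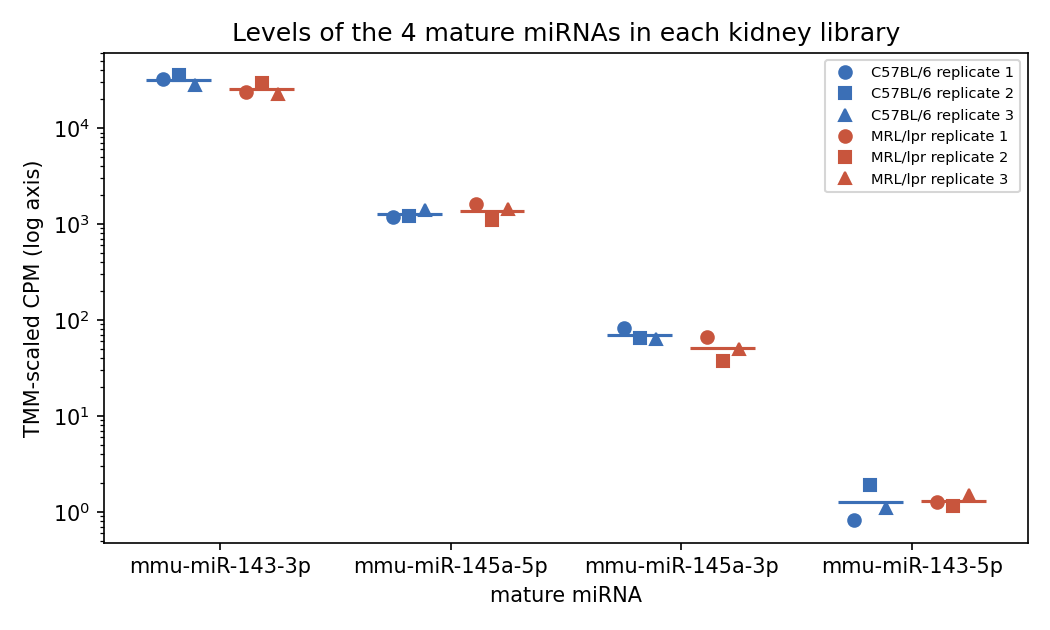
TMM-scaled CPM (log axis) of the 4 mature miRNAs in each library; points are libraries, bars are group means of 3 libraries. mmu-miR-143-3p lies between 22554 and 35554 CPM and mmu-miR-143-5p between 0.818 and 1.93 CPM, and the groups overlap for all 4.

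The order of levels was the same in all 6 libraries: miR-143-3p, miR-145a-5p, miR-145a-3p, miR-143-5p. By mean CPM over the 6 libraries miR-143-3p ranked 11 of 1542 entries and ranked between 7 and 13 in single libraries. It lay between miR-10a-5p (28984 ± 4609 CPM, SD over 6 libraries) and miR-99a-5p (28537 ± 2403 CPM), at 28743 ± 4912 CPM, and exceeded them in 4 and 3 of 6 libraries, so these neighbours were not separated beyond their spread. miR-145a-5p ranked 58, between miR-15a-5p and miR-423-3p, and exceeded them in 3 and 4 of 6 libraries. miR-145a-3p ranked 178, between miR-31-5p and miR-107-3p, again higher in 3 and 4 of 6 libraries. miR-143-5p ranked 475, next to an entry predicted by the authors and to miR-130a-5p, and exceeded each in 3 of 6 libraries. Ligation bias affects such orderings across miRNAs more than it affects comparisons of 1 miRNA across libraries.

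Spread within a strain differed between the 2 guide arms. The coefficient of variation of miR-143-3p was 11.5% in C57BL/6 against 14.9% in MRL/lpr, and that of miR-145a-5p was 9.51% and 19.0%. Among the 156 tested miRNAs with a mean of at least 100 CPM, the median was 15.8% in C57BL/6 against 13.8% in MRL/lpr. In C57BL/6, 49 of the 156 varied less than miR-143-3p and 38 varied less than miR-145a-5p. In MRL/lpr these numbers were 90 and 116. Both guide arms thus varied less than the median miRNA in C57BL/6 and more than it in MRL/lpr. With 3 libraries a strain each coefficient is imprecise, and the change in spread was not tested.

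The hairpins differed greatly in how one-sided they were. For each miR-143-5p count there were 39495, 18448 and 25895 miR-143-3p counts in C57BL/6, against 18939, 25544 and 15141 in MRL/lpr. The minor arm held 0.00394% ± 0.00145 of the hairpin's counts in C57BL/6 against 0.00527% ± 0.00134 in MRL/lpr (SD, n = 3). Of the 119 hairpins with both arms at a mean of at least 1 CPM, miR-143 was the most one-sided, with a mean of 13.6 on the log2 scale of the CPM ratio after adding 1. The added 1 CPM lowers this value, since miR-143-5p itself lay near 1 CPM, and hairpins with a rarer minor arm are not among the 119. miR-145a was in the middle, ranked 57 with a mean of 4.45.

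**Figure D2:**
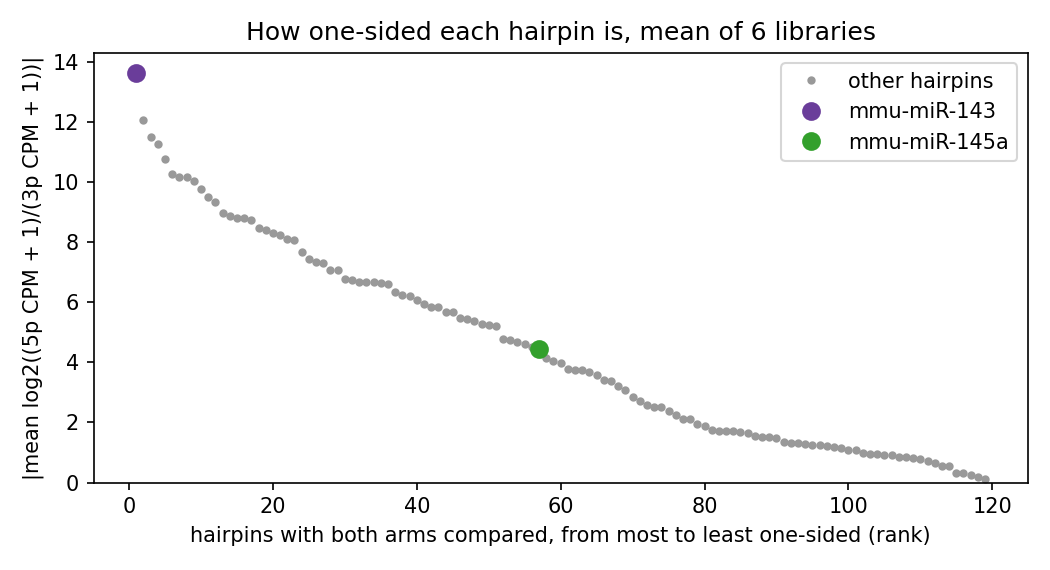
Absolute mean over 6 libraries of log2((5p CPM + 1)/(3p CPM + 1)) for each of 119 hairpins, in order of rank. miR-143 is ranked 1 at 13.6 and miR-145a is ranked 57 at 4.45.

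In miR-145a the minor arm took a smaller share in every MRL/lpr library than in any C57BL/6 library. For each miR-145a-3p count there were 14.3, 18.8 and 22.2 miR-145a-5p counts in C57BL/6 replicates 1, 2 and 3 and 24.3, 29.3 and 28.9 in MRL/lpr replicates 1, 2 and 3. The groups did not overlap, and this ratio is taken within a library, so scaling between libraries cancels. miR-145a-3p held 6.52%, 5.06% and 4.31% of the hairpin's counts in C57BL/6, against 3.95%, 3.30% and 3.34% in MRL/lpr. The exact 95% intervals of the nearest libraries met: C57BL/6 replicate 3 from 3.91% to 4.74% and MRL/lpr replicate 1 from 3.61% to 4.32%. The means were 5.30% ± 1.12 and 3.53% ± 0.365 (SD, n = 3).

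That shift did not pass the test over all hairpins. The log2 ratio of 5p to 3p was higher in MRL/lpr by 0.59 ± 0.25 (SE; 95% interval from 0.025 to 1.15), a 1.502-fold shift, with an unadjusted limma p of 0.0424 and an adjusted p of 0.36. An exact two-sided permutation test of the count ratios gave p = 0.1, the smallest that 3 against 3 can give. No hairpin of the 119 (0%) passed the limma test, 16 had an unadjusted p under 0.05, and the groups did not overlap for 20 (16.8%). With 5 CPM added, and likewise with both arms at 10 CPM or more, 4 hairpins passed, and miR-145a was not among them (limma adjusted p = 0.207 and 0.177). The miR-143 ratio was higher in MRL/lpr by 0.38 ± 0.26 (limma adjusted p = 0.667; 95% interval from -0.21 to 0.98), and 0.24 and 0.23 without C57BL/6 replicate 1 and without MRL/lpr replicate 3. Its groups overlapped, and with 4 to 12 counts of miR-143-5p per library its precision is limited by counting.

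**Figure D3:**
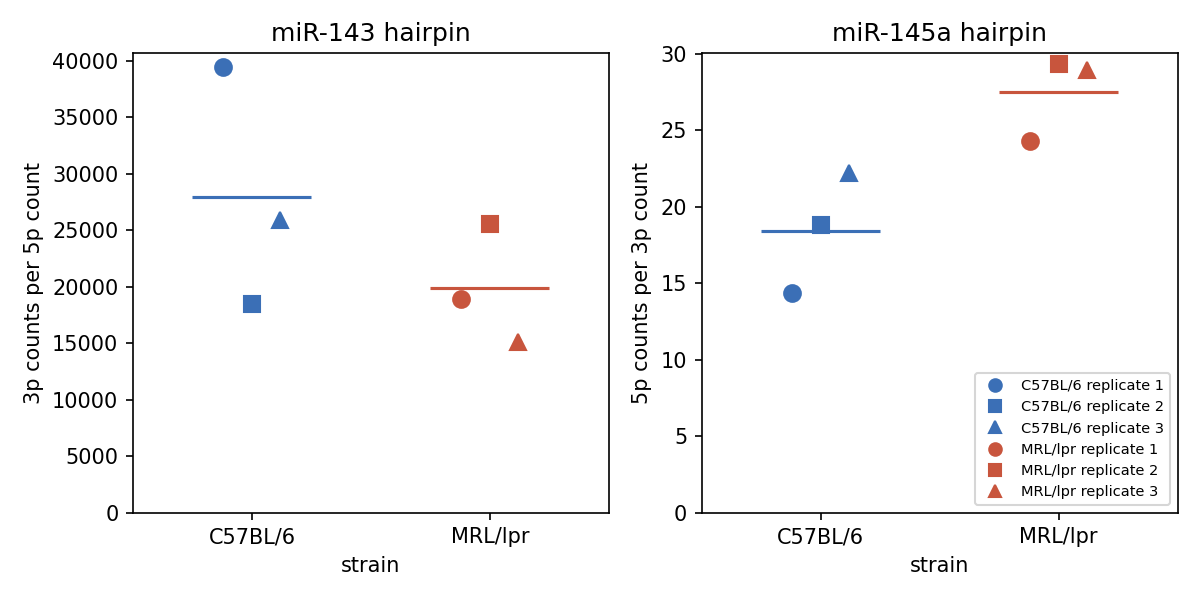
Counts of the major arm per count of the minor arm in each library for the miR-143 hairpin (left, 3p per 5p) and the miR-145a hairpin (right, 5p per 3p); points are libraries and bars are group means of 3. For miR-145a the 3 MRL/lpr libraries lie from 24.3 to 29.3, above the 3 C57BL/6 libraries at 14.3 to 22.2, while for miR-143 the groups overlap.

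The guide arms are made from 1 primary transcript, but their ratio was not fixed. For each miR-145a-5p count there were 27.0, 29.5 and 20.02 miR-143-3p counts in C57BL/6 against 14.9, 27.1 and 15.7 in MRL/lpr. MRL/lpr replicates 1 and 3 lay below all C57BL/6 libraries, and MRL/lpr replicate 2 lay within their range. The mean log2 ratio was 4.65 ± 0.293 in C57BL/6 against 4.21 ± 0.478 in MRL/lpr (SD, n = 3), a difference of -0.44 (exact two-sided permutation p = 0.3). Without MRL/lpr replicate 1 the difference was -0.29, and without MRL/lpr replicate 2 it was -0.72. The ratio of miR-143-3p to the other arm of that hairpin, miR-145a-3p, was 387, 553 and 444 in C57BL/6 against 362, 794 and 454 in MRL/lpr, with no clear shift (exact permutation p = 0.8).

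Across libraries the guide arms did not rise and fall together. The 3 libraries with the most miR-145a-5p, MRL/lpr replicates 1 and 3 and C57BL/6 replicate 3, were the 3 with the least miR-143-3p. Pearson's correlation of log2(CPM + 1) between them was -0.76 over 6 libraries, -0.59 when scaled by library size, and -0.78 if C57BL/6 replicate 2 was left out. It was 0.26 between miR-143-3p and miR-145a-3p and 0.28 between the arms of miR-145a. These are descriptions over 6 libraries that share their scaling with the miRNAs compared.

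**Figure D4:**
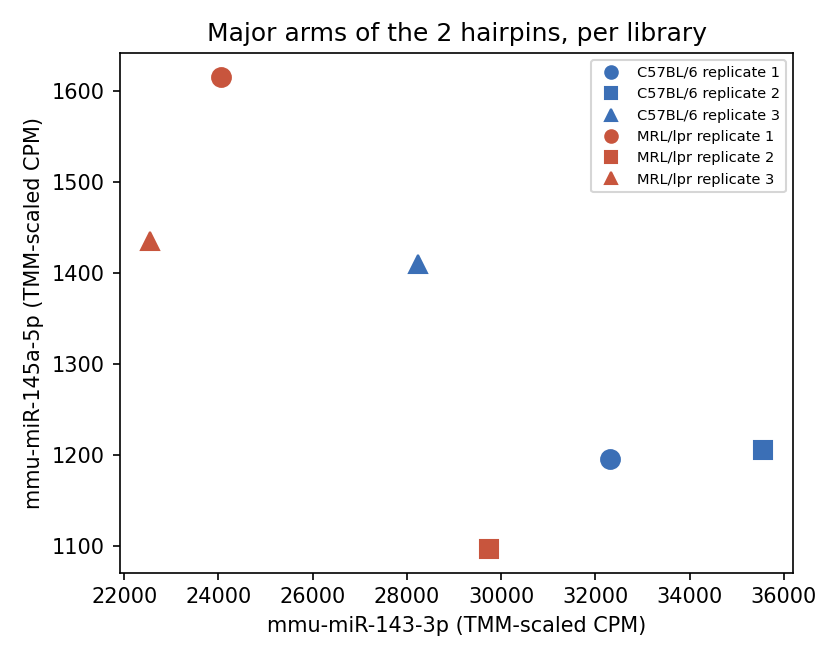
TMM-scaled CPM of mmu-miR-143-3p (x axis) against mmu-miR-145a-5p (y axis), 1 point per library, coloured by strain. The library with the most miR-145a-5p, MRL/lpr replicate 1 at 1616 CPM, has 24061 CPM of miR-143-3p, and C57BL/6 replicate 2, with the most miR-143-3p, has 1206 CPM of miR-145a-5p.

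The 4 members together held 3.02%, 3.69% and 2.82% of all counts in C57BL/6 against 2.82%, 3.03% and 2.62% in MRL/lpr, nearly all of it miR-143-3p. The means were 3.18% ± 0.457 and 2.82% ± 0.204 (SD, n = 3), a difference of -0.355 percentage points (exact two-sided permutation p = 0.5). C57BL/6 replicate 2 set much of it: without that library the difference was -0.0984, and without C57BL/6 replicate 3 it was -0.536. As a share of counts outside the 10 most abundant miRNAs the difference was -0.790 percentage points.

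The miRNAs whose levels over the 6 libraries were most like those of miR-143-3p were, among 155 compared, miR-411-5p (r = 0.98), miR-127-3p (0.96), miR-542-5p (0.95), let-7e-5p (0.94), miR-23a-3p (0.92) and miR-322-5p (0.90). miR-411-5p had 147, 222 and 119 CPM in C57BL/6 against 74.7, 110.4 and 65.2 CPM in MRL/lpr, with the same order of replicates within each strain as miR-143-3p. miR-145a-5p ranked 147 of 155 on this measure. miR-411 and miR-127 belong to the imprinted Dlk1-Dio3 cluster, and miR-542 and miR-322 to a cluster on the X chromosome. All 6 had log2 fold changes below 0, from -0.22 for miR-542-5p to -0.98 for miR-127-3p, and none passed (edgeR adjusted p from 0.0503 to 0.577). The 6 were chosen for likeness to miR-143-3p over libraries of both strains, so sharing its sign follows in part from that choice.

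Those most like miR-145a-5p were miR-9b-3p (r = 0.89), let-7c-2-3p (0.78), miR-9-5p (0.76), miR-30c-5p (0.72), miR-30a-5p (0.62) and miR-1843a-5p (0.61), also among 155. miR-9b-3p had 1351, 1533 and 1649 CPM in C57BL/6 against 1897, 1432 and 1586 CPM in MRL/lpr, with its highest library, MRL/lpr replicate 1, the same as for miR-145a-5p. It and miR-9-5p are shown because they are complementary: miR-9b-3p is annotated on the strand opposite miR-9 at 3 loci, such as chromosome 3 (88215613 to 88215633), and its reverse complement is the first 21 of the 23 bases of miR-9-5p (RefSeq, GRCm38.p6, seeds in capitals).
mmu-miR-9-5p: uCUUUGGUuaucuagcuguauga
mmu-miR-9b-3p: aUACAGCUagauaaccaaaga
Whether strand was used in counting is not stated in the sources, so reads of these 2 entries may not be separated. let-7c-2-3p had 461 and 363 CPM in C57BL/6 replicate 3 and MRL/lpr replicate 1 and at most 3.81 CPM elsewhere, so its likeness rests on those libraries. No strain difference of these 6 passed (edgeR adjusted p from 0.215 to 0.961).

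Companion miRNAs of smooth muscle came next. Of the 4 listed for the contractile state, 3 were in the table and 2 were tested, with none called by edgeR, DESeq2 or limma-voom and none at an unadjusted edgeR p under 0.05. miR-1a-3p, a muscle miRNA, had 225, 177 and 159 CPM in C57BL/6 against 118, 164 and 138 CPM in MRL/lpr, which overlap (log2 fold change -0.42, edgeR adjusted p = 0.309). miR-133a-3p, made from the same primary transcripts as miR-1a, had 1.45 to 4.09 CPM in C57BL/6 against 2.40 to 5.04 CPM in MRL/lpr (edgeR adjusted p = 0.843). Of 7 striated muscle miRNAs, which include these, 4 were tested and none passed, also unadjusted. After miR-1a-3p the most abundant was miR-499-5p, a miRNA of heart and slow skeletal muscle, with 21.7, 10.8 and 25.7 CPM in C57BL/6 against 20.2, 28.3 and 20.03 CPM in MRL/lpr, which overlap (log2 fold change 0.24, edgeR adjusted p = 0.718). The skeletal muscle miR-206-3p had at most 5.30 CPM, the cardiac miR-208a-3p had 0 to 14 counts a library, and miR-133b-3p and miR-208b-3p each had 1 count in 1 library and 0 in the other 5. All 7 lay below miR-143-3p and miR-145a-5p in every library.

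Of the 7 miRNAs of the proliferative state, printed above with their seeds, all were tested, 1 was lower and none was higher. Over all 451, 9 were lower and 19 higher (28, 6.21%). Of the 7 log2 fold changes, 5 were below 0 and 2 above, with a median of -0.28 (-0.027 over all 451). Those of miR-26a-5p and miR-24-3p were -0.21 and 0.018 (edgeR adjusted p = 0.419 and 0.963). miR-31-5p fell 1.89-fold, with 75.5, 96.8 and 74.3 CPM in C57BL/6 against 43.9, 37.4 and 49.0 CPM in MRL/lpr (log2 fold change -0.92 ± 0.23 SE, edgeR adjusted p = 0.0451). It did not pass with RLE scaling, library-size scaling or TMM without the 10 most abundant miRNAs, with a replicate block, without robust dispersion, or without any library but C57BL/6 replicate 2. The seed-sharing pair had 728 to 845 against 629 to 675 CPM for miR-221-3p and 463 to 544 against 332 to 433 CPM for miR-222-3p. Neither group pair overlapped, which held for 130 of all 451 (28.8%), and neither miRNA passed (edgeR adjusted p = 0.385 and 0.245). miR-21a-5p (10640, 26456 and 9039 CPM in C57BL/6, 16089 to 20876 in MRL/lpr) and miR-146a-5p (5010, 25568 and 4764 CPM in C57BL/6, 7312 to 8391 in MRL/lpr) were dominated by C57BL/6 replicate 2. Without that library both rose in MRL/lpr (log2 fold changes 0.92 and 0.74, edgeR adjusted p = 0.00592 and 0.0105), so 2 were then higher and 1 lower. The library was singled out for high values of such miRNAs, and leaving it out raises them in MRL/lpr by construction. For miR-143-3p the log2 fold change without it was -0.23 (edgeR adjusted p = 0.351).

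**Figure D5:**
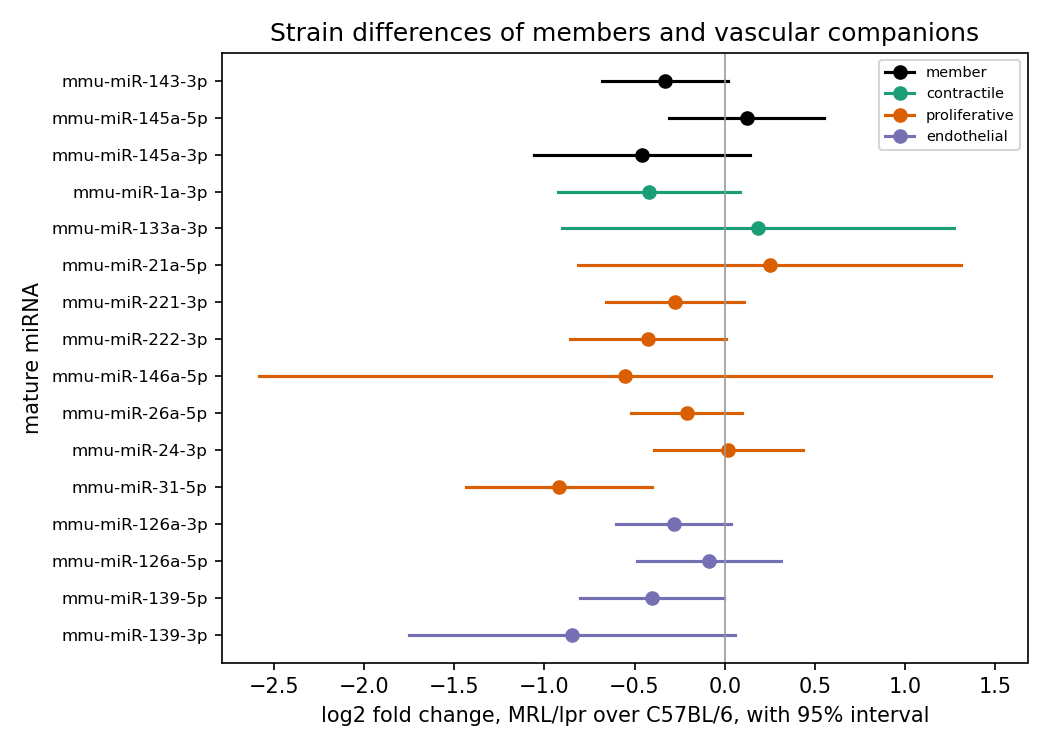
Log2 fold change, MRL/lpr over C57BL/6, with its 95% interval from edgeR (n = 3 libraries a strain) for the 3 members tested and for listed smooth muscle and endothelial miRNAs. The intervals of the 3 members include 0, and that of miR-31-5p, at -0.92, lies below 0. That of miR-139-5p, from -0.81 to -0.0033, also lies below 0, though it did not pass (edgeR adjusted p = 0.235).

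Other cells of vessels and interstitium were followed through their own lists. All 4 endothelial miRNAs were tested and none passed by edgeR (1 at an unadjusted p under 0.05), DESeq2 or limma-voom, with all 4 log2 fold changes below 0 and a median of -0.34 (3 below and 1 above with library size). Over all 451 tested, 94 had an unadjusted edgeR p under 0.05, 232 had a log2 fold change below 0, and the median was -0.027. miR-126a-3p, the main endothelial miRNA, had 81744, 68251 and 77944 CPM in C57BL/6 against 58138, 72131 and 56966 CPM in MRL/lpr (log2 fold change -0.28, edgeR adjusted p = 0.285). As with miR-143-3p, MRL/lpr replicate 2 was the highest of its strain. In C57BL/6 the 2 miRNAs differed, since replicate 2 was the lowest for miR-126a-3p and the highest for miR-143-3p. miR-139-5p had 1106 to 1294 CPM in C57BL/6 against 825 to 1069 CPM in MRL/lpr (log2 fold change -0.40, edgeR adjusted p = 0.235). Of 8 mesenchymal and pericyte miRNAs, 7 were tested and none passed by edgeR (0 also unadjusted), DESeq2 or limma-voom. All 7 log2 fold changes were below 0 with a median of -0.20, but 2 of 7 were above 0 with library size and 4 of 7 without C57BL/6 replicate 2, where the median was 0.085. By mean CPM over all 6 libraries miR-199a-3p and miR-199a-5p were the most abundant of this list, at 2850.4 ± 2892 and 704 ± 204 CPM in C57BL/6 against 2831 ± 657 and 613 ± 126 CPM in MRL/lpr (SD, n = 3). miR-199a-3p had 2698, 5815 and 37.7 CPM in C57BL/6 replicates 1, 2 and 3, and miR-199b-3p had 37.6, 36.6 and 2347 CPM. The mean of miR-199b-3p in C57BL/6, 807 CPM, was thus above that of miR-199a-5p. These 2 entries changed places in C57BL/6 replicate 3, and how multiply matching reads were treated is not stated. They may therefore not be separate measurements among the 7.

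Markers of other cells gave these values beside the members' results, and their part in those results was not tested. Summed CPM of the 7 leukocyte miRNAs ran from 1234 to 3494 in C57BL/6, highest in replicate 2, and from 2104 to 2742 in MRL/lpr. Of the 7, 1 was higher (miR-155-5p, log2 fold change 1.30, edgeR adjusted p = 0.0331), and 4 were without C57BL/6 replicate 2. Called entries made up 6.21% of the 451 tested (28, both directions). By sign, the 7 leukocyte estimates were 5 positive and 2 negative (miR-223-3p at -0.42 and miR-511-3p at -0.89). Their median was 0.24. None passed without C57BL/6 replicate 1 or 3, without MRL/lpr replicate 1 or 3, with a replicate block or without robust dispersion, while 3 did with DESeq2, 3 without a filter and 2 with limma-voom. The 5 erythroid miRNAs summed to 596 CPM in C57BL/6 replicate 2, at most 3502 in that strain, and 3476 to 4311 in MRL/lpr. None of the 4 tested passed, adjusted or not, nor did any by DESeq2, and the most abundant, miR-451a, had an edgeR adjusted p of 0.579. miR-144-3p, from the same cluster as miR-451a, had 6.95, 0.482 and 5.76 CPM in C57BL/6 against 9.46, 8.93 and 18.7 CPM in MRL/lpr (fitted fold 2.83, edgeR adjusted p = 0.301). These groups do not overlap, which held for 130 of all 451 (28.8%). The 11 kidney epithelium miRNAs summed to 73620 CPM in C57BL/6 replicate 2, at most 116892 in that strain, and 112556 to 123632 in MRL/lpr. Of 10 tested, 2 rose: miR-204-5p (log2 fold change 1.52, edgeR adjusted p = 0.00141) and miR-802-5p (1.75, adjusted p = 0.00793), and 1 of them without MRL/lpr replicate 3. That count stands beside 28 of all 451 (6.21%) called in either direction. Of the 10 log2 fold changes, 8 were above 0 and 2 below, with a median of 0.14. Those not called ran from -0.19 to 0.63. Among 7 fibrosis miRNAs 6 were tested with edgeR and none passed. An unadjusted edgeR p under 0.05 was reached by 1 of them, as by 94 of all 451. DESeq2, and edgeR with library size or with a filter of at least 10 CPM in 3 libraries, called 1 higher. Of the 6, miR-29b-3p, which represses collagen genes, came nearest (log2 fold change 0.62, edgeR adjusted p = 0.0731). Without C57BL/6 replicate 2, a run that raises injury miRNAs in MRL/lpr by construction, 2 were higher.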

How the data were processed

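Kidney RNA was extracted with TRIzol and made into small RNA libraries by adapter ligation, PCR and gel size selection, per the labels' protocols. The authors deposited 1 table of whole-number counts per mature miRNA without normalization. GRCm38.p6, Bowtie2 and DESeq2 are named, without versions or roles, per the submitters' processing notes. The sources do not state how strand, multiply matching reads and PCR copies were treated. Columns were matched to samples by strain, age and replicate number, and 0 value columns were unmatched. No libraries were duplicates, since pairs within a strain gave chi-square values 123 to 726 times their degrees of freedom.

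Counts were filtered with filterByExpr (minimum count 10, minimum total 15), TMM-scaled and tested by strain with edgeR 4.0.16 (quasi-likelihood, robust dispersion, Benjamini-Hochberg, threshold 0.05) in R 4.3.3, over all miRNAs. Standard errors come from the coefficient and its F statistic, and intervals from the fitted degrees of freedom. Arm ratios, log2((5p CPM + 1)/(3p CPM + 1)), were tested with limma 3.58.1 over hairpins whose arms both had a mean of at least 1 CPM. Single ratios and shares used exact two-sided permutation. Alternatives were 4 other scalings, 2 other filters, DESeq2 1.42.0, limma-voom, no robust dispersion, a replicate block, 2 other pseudocounts and leaving out each library. A logistic fit of arm counts, the scalings of correlations and the lists' settings were added after seeing the data. Scripts were tested on simulated data. Figures used matplotlib 3.10.9.

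Named miRNAs are the members, their neighbours in level, the 6 most correlated with each guide arm at a mean of at least 100 CPM, and for each list the called miRNAs, or failing any the 2 of highest mean over all libraries. Others (miR-31-5p's companions in the proliferative list, miR-133b-3p, miR-199b-3p, miR-206-3p, miR-208a-3p and miR-208b-3p) were named after their values were seen. Members and lists were chosen with earlier results of these data known. Sequences are RefSeq's for the 9 miRNAs printed; those of the members are not reported here.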

Additional observations from a re-analysis of the deposited data

How the results depend on the processing

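For the 3 members tested, both arm ratios, the balance of guide arms and the summed share, direction held under every alternative run and none was called. The log2 fold change ran from -0.49 to -0.19 for miR-143-3p over 16 alternatives (adjusted p from 0.096 to 0.651), from 0.023 to 0.28 for miR-145a-5p (0.481 to 0.962) and from -0.66 to -0.29 for miR-145a-3p (0.233 to 0.700). miR-143-5p turned below 0 in 3 of 6 runs without a library (range -0.26 to 0.47). The miR-145a arm shift ran from 0.42 to 0.73. With 4 to 12 counts of miR-143-5p per library, counting limits the miR-143 arm ratio, while the miR-145a minor share differed within C57BL/6 (4.31% to 6.52%) beyond its counting intervals, and 3 against 3 permutations cannot go below 0.1.

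The number of miRNAs called over the whole table, higher and lower, was 19 and 9 of 451 tested in the main run. It was 34 and 30 of 1395 without a filter, and 32 and 19 of 608 with DESeq2. Without robust dispersion it was 14 and 5 of 451. With each library left out it ran from 2 to 42 higher and from 3 to 15 lower: 10 and 5, 42 and 12, and 6 and 5 without C57BL/6 replicates 1, 2 and 3, and 12 and 7, 15 and 15, and 2 and 3 without MRL/lpr replicates 1, 2 and 3. The replicate block gave 8 higher and 5 lower, and a log2 fold change of -0.34 for miR-143-3p. Deviations of same-numbered libraries correlated at -0.34, 0.020 and -0.33, and no library correlated best with its own number, so the numbers were not taken to pair the libraries. Arm calls were 4 with 5 CPM added, 4 with both arms at 10 CPM or more, and 4 and 2 without MRL/lpr replicates 1 and 2. The stricter arm filter leaves no value for miR-143, whose 5p arm is below it.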
